A study of Mus musculus with 10 samples.

Results

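The genes described here are 10 early-response genes of mouse visceral fat. They are the 3 EGR genes Egr1, Egr2 and Egr3, the 3 NR4A genes Nr4a1, Nr4a2 and Nr4a3, the pair Ier2 and Ier3, and the pair Gadd45b and Gadd45g. They were taken by symbol from a deposited table of 56691 genes, and all 10 passed the filter on low counts, among 16591 tested genes. The libraries are of poly(A) RNA from visceral fat, by the sample labels 1 for each of 10 male mice aged 10 weeks. All mice were on chow for 8 weeks, and 5 were labelled WT and 5 aADM2-tg, for overexpression of adrenomedullin 2 in adipose tissue. No source used here names the promoter that drives the transgene, the mouse strain or the species of the adrenomedullin 2 sequence.

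Early-response genes are transcribed within minutes of a stimulus, without new protein synthesis, and their mRNAs are short-lived. EGR1, EGR2 and EGR3 are zinc finger transcription factors that bind GC-rich sites, and the NAB proteins are their co-repressors. NR4A1, NR4A2 and NR4A3 are orphan nuclear receptors whose activity follows their abundance, and cyclic AMP induces their genes through CREB. In fat cells the EGR genes are known as targets of growth factor and insulin signalling, and the NR4A genes as targets of beta-adrenergic signalling.

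The libraries held 16030435 to 18214504 counts, so that 3 counts correspond to 0.165 to 0.187 counts per 1e6 counts (CPM). Directions below follow the sample labels. A first heading line in the table names the columns the other way round, with names beginning with ADM over the WT columns, and mouse Adm2 could not serve as a check, with 2 counts in WT3 and 0 in the other 9 libraries. The labels call the cells mature adipocytes, while the libraries also held markers of other cells, as whole tissue would. The summed adipocyte markers reached 27340 to 32590 CPM in WT and 33320 to 44280 CPM in aADM2-tg, those of endothelium 1037 to 1353 and 1041 to 1510 CPM, and those of macrophages 1096 to 1348 and 577 to 1034 CPM. Summed markers of duct and ciliated epithelium were high in WT2 to WT5, at 319 to 639 CPM, and in tg2, at 844 CPM, against 122 to 173 CPM in WT1, tg1, tg3, tg4 and tg5. In such bulk samples, fewer cells of a type and less RNA per cell cannot be told apart.

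Of the 10 genes, 6 rose in aADM2-tg and 1 fell, by edgeR's quasi-likelihood test with Benjamini-Hochberg adjustment at 0.05. Over all tested genes 13.8% rose and 12.7% fell. The EGR genes rose furthest, followed by Nr4a1, while Gadd45g and Nr4a2 rose less than 2-fold and Gadd45b fell. Nr4a3, Ier2 and Ier3 did not pass the test. The median log2 difference of the 10 genes was 1.09, beside 0.018 over all tested genes. The groups overlapped for all 10 genes. Of all tested genes 17.1% do not overlap, 7.33% with aADM2-tg higher and 9.75% with aADM2-tg lower. The highest values lay in a pair of the 5 aADM2-tg libraries, tg5 and tg3. Without tg3 and tg5, a choice made after the values were seen, edgeR called 0 of the 10 genes, with 3 higher and 1 lower at an unadjusted p under 0.05. Over all genes that fit called 1133 higher and 1287 lower, against 2285 and 2107 in the main fit. DESeq2 on all 10 libraries gave 6 of the 10 genes higher and 1 lower. With a score of the duct and ciliated markers as a term in edgeR, 1 of the 10 genes, Gadd45g, was called higher and 0 lower, with 6 and 1 at an unadjusted p under 0.05. Over all genes 943 were called higher and 1433 lower with that term. Among the libraries low in duct markers, WT1 against tg1, tg3, tg4 and tg5, edgeR called 0 of the 10 genes, with 1 higher and 0 lower at an unadjusted p under 0.05. Among those high in them, WT2 to WT5 against tg2, a fit added after the data were seen, it also called 0, with 2 higher and 0 lower at an unadjusted p under 0.05. In both, the lone library was assumed to vary like those of the other group, and hardly any of all tested genes were called. The counts of 0 in these fits are thus not a result about the 10 genes.

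**Figure D1:**
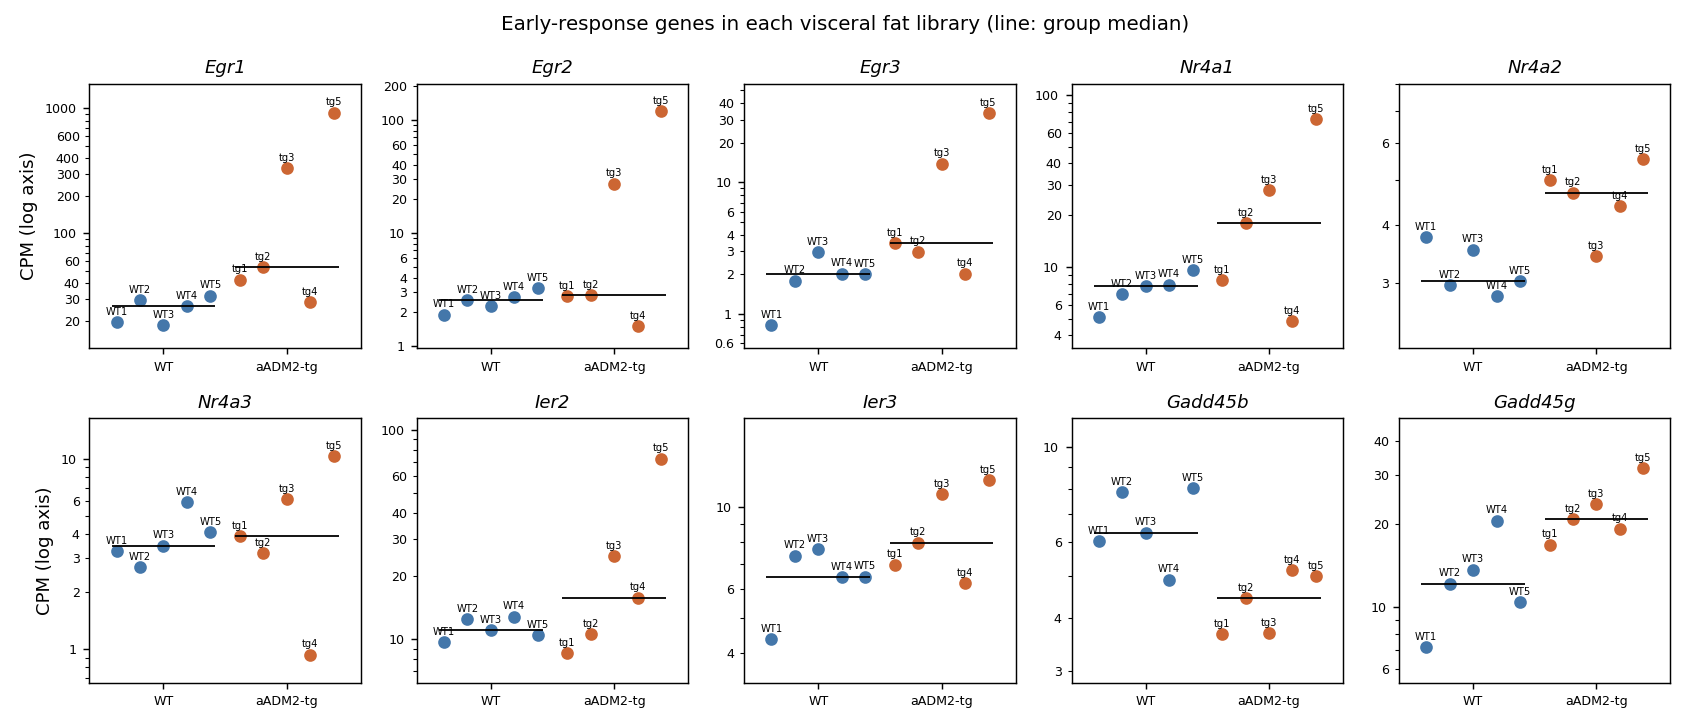
CPM (log axis, a separate range in each panel) of the 10 genes in the 5 WT and 5 aADM2-tg libraries, 1 point per library, with a line at each group's median. The points of tg5 and tg3 stand above the rest for Egr1, Egr2, Egr3 and Nr4a1, while Nr4a2 and Gadd45b show no such gap.

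Egr1, the first of the family to be induced in most cells, was the most abundant EGR gene. It was counted at 19.4, 29.2, 18.4, 26.2 and 31.7 CPM in WT1 to WT5. In tg1 to tg5 it was counted at 42.6, 54.0, 331, 28.1 and 927 CPM. Thus 4 of the 5 aADM2-tg libraries lay above every WT library, tg5 and tg3 by far, while tg4 lay inside the WT range and the groups overlapped. The means were 25.0 ± 5.92 CPM in WT and 277 ± 385 CPM in aADM2-tg (SD, n = 5 each), a log2 difference of 3.54 with a standard error of 0.93 and an adjusted p of 0.0190 (edgeR). The call held when any single library was left out, at an adjusted p of 0.00637 to 0.0472, and the difference was 2.32 without tg5. Without both tg3 and tg5 it was 0.77 at an adjusted p of 0.0520, over a range of 0.000909 to 0.443 across all alternatives. The gene (ENSMUSG00000038418) lies on chromosome 18 from 34992876 to 34998037 on the plus strand, as the table gives it. No source used here names the genome build of the table's coordinates.

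Egr2, also known as Krox20 and required for peripheral myelination and early adipogenesis, was less abundant than Egr1. Its WT libraries held 1.88, 2.53, 2.25, 2.71 and 3.26 CPM, in order of their numbers. The aADM2-tg libraries held 2.76, 2.80, 27.2, 1.48 and 120 CPM. Here tg1 and tg2 lay inside the WT range, tg4 was the lowest of all 10 libraries, and only tg3 and tg5 lay above the WT libraries. The log2 difference was 3.67 with a standard error of 1.14 and an adjusted p of 0.0360 (edgeR). The call was lost without any one of WT1 to WT5, tg3 or tg5, at adjusted p of up to 0.108 and a difference of 1.89 without tg5. It was -0.064 when tg3 and tg5 were left out, at an adjusted p of 0.899, and over all alternatives adjusted p ran from 0.00400 to 0.965. Egr2 (ENSMUSG00000037868) lies on chromosome 10 from 67371305 to 67378018 on the plus strand.

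Egr3, which EGR1 induces in other tissues and which shares its DNA site, had the lowest WT median of the 10 genes per exonic length, and in aADM2-tg the second lowest, after Nr4a3. WT1 to WT5 held 0.83, 1.80, 2.95, 2.03 and 2.02 CPM. The aADM2-tg libraries held 3.48, 2.99, 13.9, 2.03 and 33.4 CPM. All but tg4 lay above every WT library, tg2 only just above WT3. This gave a log2 difference of 2.61 with a standard error of 0.76 and an adjusted p of 0.0280 (edgeR), and 0.61 without tg3 and tg5, at an adjusted p of 0.263. The call was lost without WT1, WT2, WT4, WT5, tg3 or tg5, at adjusted p of up to 0.0663 and a difference of 1.66 without tg5, and over all alternatives adjusted p ran from 0.00556 to 0.605. Egr3 (ENSMUSG00000033730) lies on chromosome 14 from 70314652 to 70320063 on the plus strand.

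The 3 EGR genes kept a similar order in every library, Egr1 above both others. Per kilobase of exons, Egr1 was 6.20 to 8.74 times Egr2 in WT, 9.22 to 14.6 times in tg1 to tg4 and 5.87 times in tg5. The tg5 ratio was thus the lowest of the 10, although both genes were at their highest there. The ratio of Egr1 to Egr3 was highest in tg5, at 27.3, and tg3, at 23.4, with WT1 close to them at 22.9. As deviations from the mean of the own group on the log2 scale, Egr1 and Egr2 correlated at r = 0.994 over the 10 libraries and at 0.877 without tg3 and tg5. Egr1 and Egr3 correlated at 0.931, and at 0.187 without tg3 and tg5. The points are libraries of similar depth, and the values are descriptions.

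The NR4A promoters are shown because cyclic AMP is the best-known inducer of these genes, while the values of the 3 members were unlike each other. They are the sequences before the RefSeq transcription start on mouse build GRCm38.p6, up to 250 bases, without annotated exons. Nr4a1 is chr15:101266596-101266845 on the plus strand, Nr4a2 is chr2:57124004-57124253 on the minus strand and Nr4a3 is chr4:48045055-48045152 on the plus strand. Capitals mark the core of the cyclic AMP response element, TGACG, read on either strand (CGTCA on the other), and in Nr4a2 also a TATA box, TATAAA, read on the other strand as TTTATA.
Nr4a1: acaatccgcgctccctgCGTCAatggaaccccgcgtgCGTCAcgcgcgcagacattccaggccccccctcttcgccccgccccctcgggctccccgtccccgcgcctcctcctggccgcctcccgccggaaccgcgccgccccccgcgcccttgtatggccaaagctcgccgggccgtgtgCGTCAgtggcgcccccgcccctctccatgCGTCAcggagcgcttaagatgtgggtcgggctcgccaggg
Nr4a2: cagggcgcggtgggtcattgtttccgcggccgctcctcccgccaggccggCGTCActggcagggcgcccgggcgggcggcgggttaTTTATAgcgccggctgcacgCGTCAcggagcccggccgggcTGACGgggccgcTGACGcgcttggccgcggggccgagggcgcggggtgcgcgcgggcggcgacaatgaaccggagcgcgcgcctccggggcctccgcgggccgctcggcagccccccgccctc
Nr4a3: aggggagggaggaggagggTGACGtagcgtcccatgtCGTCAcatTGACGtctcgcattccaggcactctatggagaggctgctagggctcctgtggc

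The 250-base windows of Nr4a1, Nr4a2 and Nr4a3 each held 4 core sites, of which the last of Nr4a3 lies beyond the stretch printed. Of 32851 RefSeq promoter windows of that length 17.8% held at least 1 core site and 0.137% at least 4. Among the 9178 windows with at least 60% G and C, 0.370% held at least 4. The whole element, TGACGTCA, which holds a core site on each strand, was in none of the 3 windows and in 1.55% of all. Sequences were searched for 7 of the 10 genes. Windows of the 10 genes on chromosome 18, where Egr1 lies, were left out, so the Egr1 promoter was not searched. Egr3 and Ier2 had no matched window. The CArG box of serum response factor, CC and GG around 6 letters A or T, was in 4 of 5 windows listed for Egr2, 3 of which overlap and may hold the same box, and in 1.47% of all windows. A TATA box stood before Gadd45b and Gadd45g, 46 and 27 bases ahead of the start, and in 12.4% of all windows. None of the 7 genes held in the window that begins farthest upstream the EGR site GCGTGGGCG, the NR4A site AAAGGTCA or the AP-1 site TGANTCA, which are in 0.536%, 1.34% and 6.75% of windows. A match of letters is a description and not a binding site.

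Nr4a1, or Nur77, was the most abundant NR4A gene and was highest in the same pair of libraries as the EGR genes. It was counted at 5.09, 6.98, 7.74, 7.90 and 9.60 CPM in WT1 to WT5. It was counted at 8.34, 18.0, 28.0, 4.83 and 72.5 CPM in tg1 to tg5. Thus tg2, tg3 and tg5 lay above all WT libraries, tg1 inside their range and tg4 below them. The fitted log2 difference came to 1.88 with a standard error of 0.61 and an adjusted p of 0.0428 (edgeR). It was 1.07 without tg5 and 0.50 without tg3 and tg5, at adjusted p of 0.104 and 0.368, within a range of 0.0200 to 0.510. The call was also lost without any one WT library and without tg3. Nr4a1 (ENSMUSG00000023034, chromosome 15, 101152150 to 101172676, plus strand) overlaps a gene without symbol on the same strand, whose counts came to 3.44% of its own.

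Nr4a2, or Nurr1, known for its part in dopamine neurons, rose less, with another set of high libraries. WT1 to WT5 held 3.76, 2.98, 3.55, 2.82 and 3.03 CPM, a narrow range. The aADM2-tg libraries held 4.98, 4.69, 3.43, 4.39 and 5.54 CPM. Here tg3 lay inside the WT range and the other 4 aADM2-tg libraries above it. aADM2-tg lay above WT by a log2 difference of 0.57 with a standard error of 0.17 and an adjusted p of 0.0312 (edgeR), and 0.58 without tg3 and tg5, at an adjusted p of 0.0607. The call was lost without any one of WT2 to WT5, tg1, tg4 or tg5, at adjusted p of up to 0.0831, and alternatives ranged from 0.0158 to 0.800. Nr4a2 (ENSMUSG00000026826) lies on chromosome 2 from 56996842 to 57014015 on the minus strand.

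Nr4a3, or Nor1, gave no difference past the threshold. It was at 3.27, 2.70, 3.49, 5.93 and 4.10 CPM in WT1 to WT5. It was at 3.90, 3.17, 6.11, 0.93 and 10.3 CPM in tg1 to tg5. Its value in tg5 was the highest and that in tg4 the lowest of the 10 libraries, with tg3 just above WT4. The log2 difference was 0.39 with a standard error of 0.49 and an adjusted p of 0.584 (edgeR), and it turned to -0.056 without tg5 and to -0.51 without tg3 and tg5. Nr4a3 (ENSMUSG00000028341) lies on chromosome 4 from 48045153 to 48086447 on the plus strand.

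Within groups, Nr4a1 and Nr4a3 varied with the EGR genes, at r of 0.908 to 0.938 and of 0.815 to 0.842, while Nr4a2 did not, at r of -0.0111 to 0.0767. Without tg3 and tg5 these r were 0.465 to 0.780 for Nr4a1, 0.410 to 0.806 for Nr4a3 and -0.459 to -0.283 for Nr4a2. Per kilobase of exons, Nr4a1 was 1.57 to 3.66 times Nr4a2 in WT, 9.44 times in tg3 and 15.1 times in tg5. In tg1, tg2 and tg4 that ratio was 1.94, 4.43 and 1.27.

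Ier2, an early-response nuclear protein, stood highest in tg5 but did not pass the test. WT1 to WT5 held 9.69, 12.5, 11.1, 12.8 and 10.4 CPM. The aADM2-tg libraries held 8.58, 10.5, 25.0, 15.8 and 72.9 CPM. Thus tg3, tg4 and tg5 lay above all WT libraries, tg2 inside their range and tg1 below them. The fitted log2 difference came to 1.30 with a standard error of 0.52 and an adjusted p of 0.0847 (edgeR). It passed the threshold without tg1, at 1.52, and without tg2, at 1.50, with adjusted p of 0.0498 and 0.0300, and was 0.50 without tg5. Over the alternatives adjusted p ranged up to 0.782. Ier2 (ENSMUSG00000053560) lies on chromosome 8 from 85387960 to 85389483 on the minus strand.

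Ier3, a regulator of apoptosis also known as IEX-1, did not pass the test. It was at 4.37, 7.37, 7.68, 6.43 and 6.46 CPM in WT1 to WT5. It was at 6.96, 7.99, 10.8, 6.20 and 11.8 CPM in tg1 to tg5. Again tg5 and tg3 were the highest, with tg2 just above the WT range and tg1 and tg4 inside it. aADM2-tg lay above WT by a log2 difference of 0.51 with a standard error of 0.21 and an adjusted p of 0.0942 (edgeR). Ier3 (ENSMUSG00000003541) lies on chromosome 17 from 36132576 to 36133815 on the plus strand.

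The GADD45 genes code for small stress proteins that bind PCNA, p21 and the kinase MEKK4, and the pair moved in opposite directions. Gadd45b was counted at 6.03, 7.88, 6.32, 4.91 and 8.03 CPM in WT1 to WT5. It was counted at 3.66, 4.45, 3.68, 5.16 and 5.00 CPM in tg1 to tg5. Thus tg1, tg2 and tg3 lay below every WT library, while tg4 and tg5 lay just above WT4. Gadd45b fell by 0.53 on the log2 scale with a standard error of 0.17 and an adjusted p of 0.0431 (edgeR), and the difference was of the same size without tg3 and tg5, at an adjusted p of 0.114. The call was lost without WT1, WT2, WT3, WT5, tg1, tg3 or tg5, at adjusted p of up to 0.0938, and over all alternatives adjusted p ranged from 0.0199 to 0.489. Gadd45b (ENSMUSG00000015312) lies on chromosome 10 from 80765907 to 80768038 on the plus strand.

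Gadd45g had the highest median of the 10 genes per exonic length in both groups, although Egr1 lay above it in tg3, at 73.8 against 20.2 FPKM, and in tg5, at 206.7 against 27.2 FPKM. WT1 to WT5 held 7.20, 12.2, 13.7, 20.6 and 10.4 CPM. The aADM2-tg libraries held 16.9, 20.8, 23.6, 19.3 and 31.9 CPM. WT4 reached into the aADM2-tg values, with tg1 and tg4 below it, and the other WT libraries lay below all aADM2-tg libraries. This gave a log2 difference of 0.88 with a standard error of 0.25 and an adjusted p of 0.0252 (edgeR), and 0.62 without tg3 and tg5, at an adjusted p of 0.142. The call was lost without WT2, WT5, tg3 or tg5, at adjusted p of up to 0.0652, and over all alternatives adjusted p ranged from 0.00374 to 0.454. Gadd45g (ENSMUSG00000021453) lies on chromosome 13 from 52000714 to 52002504 on the plus strand. Per kilobase of exons, Gadd45g was 1.62 to 5.68 times Gadd45b in WT and 5.06 to 8.70 times in aADM2-tg.

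**Figure D2:**
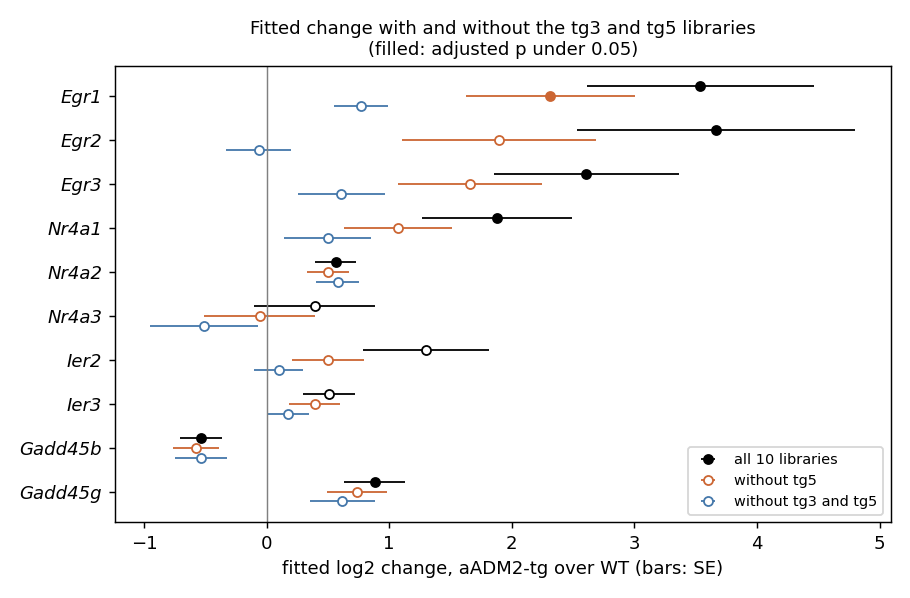
Fitted log2 difference between aADM2-tg and WT for the 10 genes, with bars of 1 standard error, over all 10 libraries, without tg5 and without tg3 and tg5 (filled points: adjusted p under 0.05). Egr2 goes from 3.67 over 1.89 to -0.064 and Egr1 from 3.54 over 2.32 to 0.77, while Nr4a2 stays at 0.50 to 0.58.

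In counts per kilobase of exons and per 1e6 counts (FPKM), the WT medians ran from Gadd45g at 10.4 through Ier2 at 7.25, Egr1 at 5.85, Ier3 at 5.71, Gadd45b at 3.98 and Nr4a1 at 2.21 to Nr4a2 at 0.747, Egr2 at 0.745, Nr4a3 at 0.582 and Egr3 at 0.459. The WT ranges of neighbours in this order overlapped, except for Gadd45b and Nr4a1, which lay from 3.09 to 5.05 and from 1.45 to 2.74 FPKM, and Nr4a1 and Nr4a2, whose highest value was 0.927 FPKM. In aADM2-tg the median of Egr1 was the next after that of Gadd45g, at 12.0 and 17.7 FPKM. Nr4a1 stood at a median of 5.13 FPKM there, above Gadd45b at 2.80 FPKM. The CPM of the 10 genes summed to 61.5 to 92.4 in WT. The sums were 102, 129, 473, 88.2 and 1290 CPM in tg1 to tg5. Egr1 made up 23.8% to 35.6% of the sum in WT, and 70.0% and 71.9% in tg3 and tg5.

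The libraries tg5 and tg3 carried the high values. In tg5 9 of the 10 genes lay above all WT libraries, in tg3 8, in tg2 6, in tg1 3 and in tg4 2. Over all tested genes 29.3%, 24.5%, 30.1%, 26.1% and 28.3% lay so in these libraries. Library tg5 was the highest of all 10 for 9 of the genes, where it was so for 14.5% of tested genes. Both tg3 and tg5 were the pair of highest libraries for 8 of the genes, where they were so for 3.25% of tested genes. At least 2 times the median of the other 9 libraries was reached in tg5 by 6 of the genes, and by 2.45% of tested genes. The exceptions to the shared lead of tg3 and tg5 were Nr4a2, for which tg3 was inside the WT range, and Gadd45b, highest in WT5.

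Relative to the median of the other 9 libraries, Egr2 was 44.2-fold higher in tg5 and 10.0-fold in tg3, Egr1 31.8-fold and 11.3-fold, and Egr3 16.4-fold and 6.85-fold. Nr4a1 was 9.18-fold and 3.55-fold higher, Ier2 6.59-fold and 2.26-fold, and Nr4a3 2.96-fold and 1.75-fold. By this ratio Egr1 was the second and Egr2 the third of 15299 genes in tg3, and Egr2 ranked 4 and Egr1 8 in tg5. The spread within groups is given beside these ratios. On the log2 scale the SD of Egr2 was 2.67 in aADM2-tg and 0.26 in WT, and that of Egr1 2.18 and 0.33, while Nr4a2 had 0.22 in both. The SD of Ier2 was 1.24 in aADM2-tg and 0.12 in WT.

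**Figure D3:**
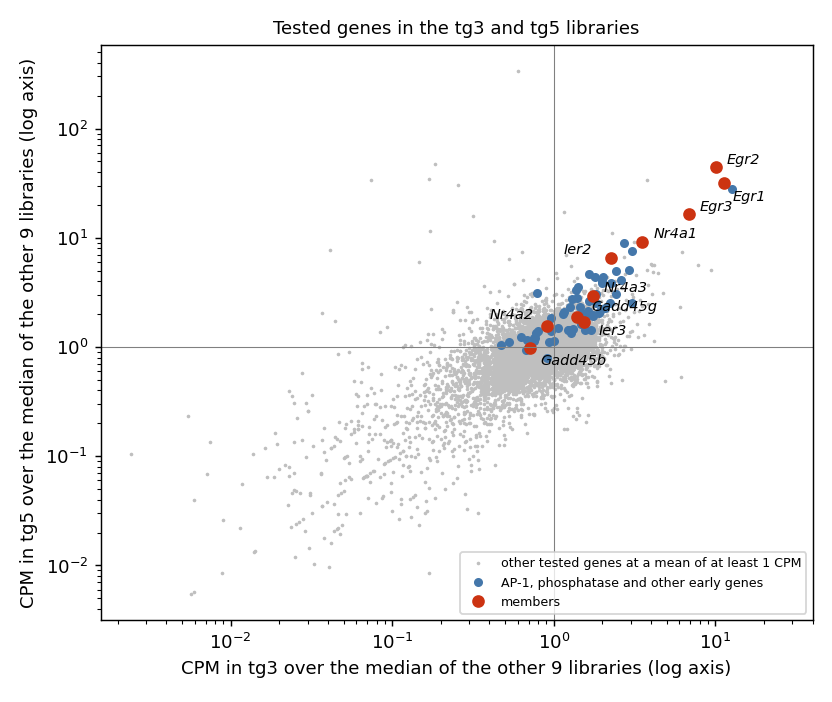
CPM in tg3 (x) and tg5 (y), each over the median of the other 9 libraries, on log axes, for tested genes with a mean of at least 1 CPM. Genes at 0 in either ratio are not drawn. Egr2, Egr1, Egr3, Nr4a1 and Ier2 lie at the upper right. Nr4a2 lies at 0.911 (x) and 1.56 (y), and Gadd45b at 0.713 and 0.970.

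The cell markers of these libraries are given beside this result, and their part in it was not tested. Of 8 endothelial markers 2 rose in aADM2-tg. Endothelial markers summed to 1510 CPM in tg5, the highest of the 10 libraries, and to 1041 CPM in tg3, the second lowest. Of 12 adipocyte markers 8 rose and 1 fell, and their sums were 39020 CPM in tg5 and 44280 CPM in tg3. Of 10 progenitor and fibroblast markers 1 rose and 7 fell, with sums of 2980 and 2485 CPM beside 4726 to 8237 CPM in WT. Of 9 macrophage markers 3 fell, with sums of 1034 and 861 CPM. Red blood cell markers, 1 of 5 of which rose, were at 667 and 545 CPM, with 1155 CPM in tg2 and 586 CPM in WT2. All 5 of them were called higher without WT2 and with the duct score, 4 with the replicate block and without tg1, and 0 without any one of WT1, WT3, WT4, WT5 or tg3. Lymphocyte markers, 1 of 6 tested of which rose, were at 18.2 CPM in tg5 and 4.43 CPM in tg3, beside 21.5 CPM in tg1 and 6.26 to 11.8 CPM in WT. Duct and ciliated markers were low in both, at 141 and 165 CPM, as in tg1, tg4 and WT1. Male germ cell markers were at 0.42 and 0.37 CPM in tg5 and tg3 and at 2.88 to 203 CPM in WT. All 5 tested germ cell markers fell. Of the lists of smooth muscle and pericyte, neutrophil and mast cell, and duct and ciliated epithelium, 0 genes were called in edgeR, with 2 and 2 lower and 1 higher at an unadjusted p under 0.05, and with 2 lower, 1 lower and 1 higher in DESeq2. Of the 26 tested duct and ciliated markers, 23 were called lower without tg2 and 25 without WT1 and tg2. Of the lists of mesothelium, skeletal muscle and pancreatic acinar cell, 0 genes were called in the main edgeR fit, 0 at an unadjusted p under 0.05 and 0 in DESeq2. Alternatives called 2 mesothelial markers lower with the replicate block, 1 without tg1, and 1 skeletal muscle marker lower with the duct score. They also called 3 of 5 neutrophil and mast cell markers lower without tg3 and tg5. At a mean of at least 10 CPM, 2 smooth muscle and pericyte markers were called lower. Prss2, Ctrb1 and Amy2a5 of the acinar list were at 0 in all libraries. Over the whole table, tg3 and tg5 were each closest to tg1 in rank correlation, at 0.988 and 0.984. Their columns carry one library identifier in common, but their counts differ, with a Spearman correlation of 0.983 between them. Whether they come from different mice cannot be told from this.

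Of 4 tested genes of the list of other EGR genes, EGR co-repressors and partners, 0 rose and 1 fell in edgeR, with 0 higher both at an unadjusted p under 0.05 and in DESeq2, and a median log2 difference of -0.11. Sp1, a zinc finger factor that binds GC boxes, lay at 129 to 154 CPM in WT and 90.9 to 112 CPM in aADM2-tg, without overlap. It fell by 0.40 on the log2 scale with an adjusted p of 0.00183, and by 0.076 with a correction for length and GC content, at an adjusted p of 0.507. The co-repressor gene Nab2 and the gene of serum response factor, Srf, were chosen after their values were seen. Nab2 lay at 10.5 to 13.8 CPM in WT, at 38.7 CPM in tg5 and at 8.78 to 16.0 CPM in the other aADM2-tg libraries. Srf lay at 18.6 to 30.3 CPM in WT, at 52.0 CPM in tg5 and at 19.8 to 34.8 CPM in the others. Neither passed the test, at log2 differences of 0.58 and 0.43 and adjusted p of 0.254 and 0.250 (edgeR).

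Of 14 genes of the serum response and ETS input, 2 rose and 1 fell, with a median log2 difference of -0.027. Rps6ka3, the kinase RSK2, fell by 0.41 on the log2 scale with an adjusted p of 0.00559, from 342 to 395 CPM in WT to 225 to 308 CPM in aADM2-tg. With the length and GC correction its difference was -0.022. Map2k1, the kinase MEK1, rose by 0.23 and Mapk3, the kinase ERK1, by 0.20, with adjusted p of 0.00936 and 0.0452. The call of Mapk3 held in 2 of the 10 fits that left out a library, with adjusted p of 0.00709 to 0.102.

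Of 12 genes of the CREB input to the NR4A genes, 2 rose and 3 fell, with a median log2 difference of -0.16. Pde4d, a phosphodiesterase that breaks down cyclic AMP, lay at 9.66 to 13.4 CPM in WT and 3.02 to 5.05 CPM in aADM2-tg. It fell by 1.43 on the log2 scale with a standard error of 0.16 and an adjusted p of 0.000978. Sik2, a kinase that keeps CREB coactivators in the cytoplasm, fell by 0.59 and Creb1 by 0.27, with adjusted p of 0.00378 and 0.0133, and Creb1 turned to 0.24 at an adjusted p of 0.0485 with the length and GC correction. Crtc2, a CREB coactivator, rose by 0.34 with an adjusted p of 0.0146.

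Of 6 NR4A partners, 2 rose and 3 fell, with a median log2 difference of -0.16. The glucocorticoid receptor gene Nr3c1 fell by 0.49, the corepressor genes Ncor1 and Rcor1 by 0.28 and 0.34, and Rxrg, a retinoid X receptor that pairs with NR4A1 and NR4A2, rose by 0.84, with adjusted p of 0.00126, 0.00831, 0.0172 and 0.0206. With the length and GC correction the 3 lower calls were lost, and Ncor1 stood at 0.044. The call of Rxrg was lost without tg3, where its adjusted p was 0.0519, and without tg4.

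Of 12 genes of the GADD45 family and stress kinases, 3 rose and 1 fell, with a median log2 difference of 0.10. The third GADD45 gene, Gadd45a, did not pass the test, with a log2 difference of -0.25 and an adjusted p of 0.404. Mapk11, the kinase p38 beta, lay at 4.15 to 5.67 CPM in WT and 6.24 to 12.3 CPM in aADM2-tg, without overlap. It rose by 1.01 with an adjusted p of 0.00550. Map2k3, which activates p38, rose by 0.32 and Gadd45gip1, a mitochondrial ribosomal protein that binds GADD45G, by 0.51, with adjusted p of 0.0151 and 0.0199. Map2k6, the other p38 activator, fell by 0.56 with an adjusted p of 0.0340, a call held in 3 of the 10 fits that left out a library.

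Of 7 tested AP-1 genes, 3 rose and 0 fell in edgeR, with 6 higher and 0 lower both at an unadjusted p under 0.05 and in DESeq2, and the median log2 difference was 1.06. Jun rose by 0.47, Fosb by 2.13 and Fos by 1.28, with adjusted p of 0.0175, 0.0466 and 0.0466. Fos was at 8.03, 25.5, 12.5, 25.0 and 21.6 CPM in WT1 to WT5 and at 27.0, 46.6, 35.6, 17.3 and 89.5 CPM in tg1 to tg5, so that tg4 lay inside the WT range and the others above it. For all 7 genes tg5 was the highest library. Without tg3 and tg5, 0 AP-1 genes rose, with 1 higher at an unadjusted p under 0.05, and 1 fell, Fosl2, at a log2 difference of -0.51 and an adjusted p of 0.0225. The calls of Fos and Fosb were lost in 8 and 7 of the 10 fits that left out a library, at adjusted p of up to 0.106 and 0.117.

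Of 12 tested phosphatases and feedback inhibitors of the MAP kinases, 2 rose and 1 fell, with a median log2 difference of 0.32. Spry1, an inhibitor of receptor tyrosine kinase signalling, rose by 0.61 and Dusp1, a nuclear phosphatase of p38, JNK and ERK, by 0.86, with adjusted p of 0.00921 and 0.0459. Spred1, another Ras pathway inhibitor, fell by 0.45 with an adjusted p of 0.0115, and by 0.13 with the length and GC correction. For 8 of the 12 genes tg5 was the highest library. Without tg3 and tg5, without tg5 alone or without WT2, 1 gene of the list rose and 2 fell. The call of Dusp1 was lost in 6 of the 10 fits that left out a library, with an adjusted p of up to 0.111.

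Of 41 other immediate-early genes, 15 rose and 0 fell in edgeR, against 17 and 0 in DESeq2 and 21 and 0 at an unadjusted p under 0.05, and the median log2 difference was 0.66. Nfkbia, the inhibitor of NF-kappa-B, lay at 40.9 to 56.1 CPM in WT and 70.3 to 110 CPM in aADM2-tg, without overlap. It rose by 1.02, Sgk1, a kinase induced by glucocorticoid and serum, by 1.27, Klf2, a factor of quiescent endothelium and T cells, by 1.03, and Cebpd, an early adipogenic factor, by 1.57. Their adjusted p were 0.00150, 0.00197, 0.00355 and 0.00426. Without tg3 and tg5, 7 of the list rose.

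With the duct score as a term, Creb1, Crtc2, Dusp1, Fosb, Gadd45gip1, Map2k3, Map2k6, Mapk3, Rcor1 and Rxrg no longer passed, at adjusted p from 0.0501 for Fosb to 0.284 for Mapk3. Without tg3 and tg5, Creb1, Map2k3, Map2k6, Mapk3, Rxrg, Jun, Fos, Fosb and Dusp1 no longer passed, at adjusted p from 0.0579 for Rxrg to 0.261 for Fosb. With the length and GC correction, beside the genes named above, Sik2 no longer passed, at a log2 difference of -0.34, nor did Map2k6, at -0.45, and their adjusted p were 0.0864 and 0.0774. Map2k3, Dusp1 and Mapk3 did not pass there either, at adjusted p of 0.0509, 0.0522 and 0.337. Within the libraries low in duct markers and within those high in them, 0 of the genes of these lists were called, with 15 and 11 higher and 8 and 14 lower at an unadjusted p under 0.05.

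**Figure D4:**
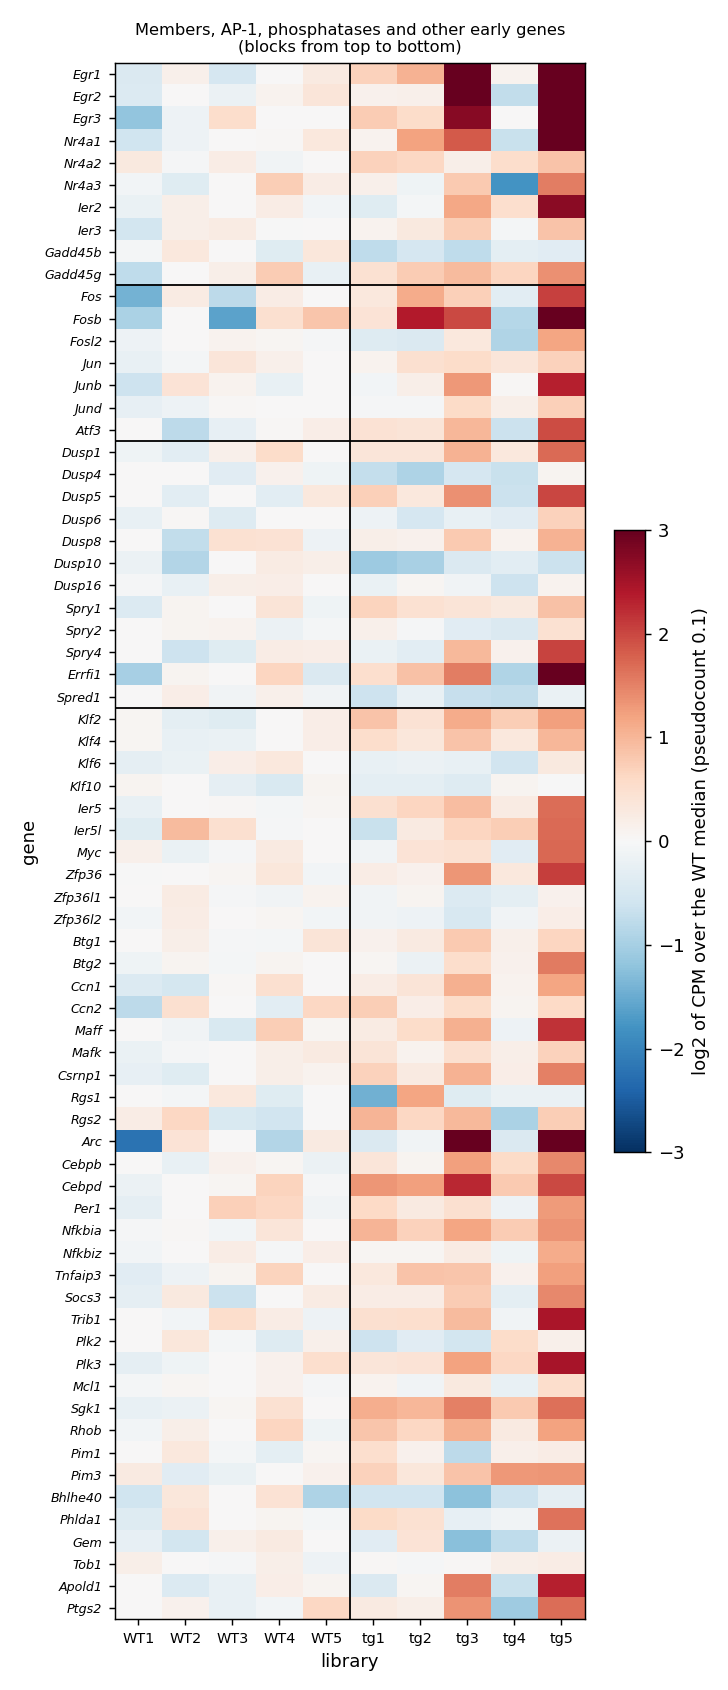
Log2 of CPM of the 10 genes and of the tested AP-1, phosphatase and other immediate-early genes in each library, over the WT median of the gene, with a pseudocount of 0.1 CPM and colours limited at 3 log2 units. The columns tg5 and tg3 hold the strongest colours for the EGR genes and Nr4a1, and Egr1 in tg4 stays near WT.

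Likeness was measured by the correlation of log2 CPM within groups over the 10 libraries, with CPM here scaled by TMM factors. It was taken among 9512 genes with a mean of at least 10 CPM. The 10 genes themselves and genes with Gm or Rik symbols were left out. The genes most like Egr1 were Tubb6, Atf1 and Apold1, at r of 0.983, 0.981 and 0.968. Those most like Nr4a1 were Gdap2, Atf1 and Ier5, at 0.965, 0.960 and 0.957. For Ier2 they were Ttpal, Bcl10 and Btg2, at 0.968, 0.967 and 0.965, and for Gadd45g Txnrd1, Adamts5 and Bcas3, at 0.953, 0.929 and 0.921. The measure does not take the size of the variation or the difference between genotypes into account. Gadd45g rose in aADM2-tg, while Adamts5 fell, at a log2 difference of -1.18 and an adjusted p of 0.00183 (edgeR). Txnrd1 and Bcas3 were not called. Apold1, an early-response gene of endothelium, ran from 8.95 CPM in tg4 to 72.2 CPM in tg5, whereas Atf1, a factor of the CREB family, ran only from 36.9 CPM in tg4 to 44.8 CPM in tg5. These values are CPM without TMM scaling. In them Atf1 was lower in tg3, at 39.3 CPM, than in tg2, at 42.2 CPM, unlike Egr1.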

How the data were processed

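Raw read counts of each gene were deposited in 1 table, with 10 count columns, per the file headers. The columns of tg3 and tg5 carry the same library identifier, so the headers do not show that they come from different mice. HISAT2 2.2.1 and HTSeq 0.6.1 are listed in the submitters' processing notes, without a strand setting. Groups follow the sample labels. Since titles and descriptions of 3 aADM2-tg samples disagree on the number, the names tg3, tg4 and tg5 come from the table's columns.

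The main test was edgeR 4.0.16 in R 4.3.3 (filterByExpr, TMM, quasi-likelihood, genotype alone), with Benjamini-Hochberg adjustment over 16591 genes at a threshold of 0.05. CPM are per 1e6 counts, and FPKM were computed from counts and exonic lengths. For correlations within groups, SDs on the log2 scale and the duct marker score, CPM were scaled by TMM factors, with a prior count of 2. Standard errors were derived from the test, as the absolute log2 difference over the square root of its F statistic. Alternatives were DESeq2 1.42.0, its size factors in edgeR, limma 3.58.1 on log2 of FPKM plus 1, other filters, a length and GC correction, a duct marker score (mean log2 CPM over its 27 markers), a replicate block, and fits without libraries. Leaving out tg3 and tg5, the fit within the libraries high in duct markers, and robust dispersions were added after the data were seen. The fit was tested on simulated data, where it called 64.4% of planted 2-fold and 90.6% of planted 4-fold changes. Of its 164 calls there, 12 were false. The simulated libraries held no difference in duct RNA and none set apart like tg3 and tg5.

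Members, lists and tests were chosen with earlier results of these data known, and support nothing independently. Named are all 10 members, up to 4 called genes of each related list by adjusted p, and the 3 genes most like the most abundant member of each family. Limits from 3 counts cover counting error only, since the labels describe no molecular identifiers.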

Additional observations from a re-analysis of the deposited data

Results flagged for a closer look

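In 2 of 20 groups checked (10 genes in WT and in aADM2-tg, 5 libraries each), 1 library stood apart by Dixon's criterion for 5 values. For independent and normally distributed values, chance alone does this in about 1 of 20 groups. The groups here share libraries and hold CPM, so their number cannot be judged by that rate. Egr2 was at 119.6 CPM in tg5, beside 1.48 to 27.2 CPM in the other 4 aADM2-tg libraries. Ier2 was at 72.87 CPM in tg5, beside 8.58 to 25.0 CPM in the other 4. Egr1 did not meet the criterion, since tg3, at 331 CPM, lies between tg5 and the rest.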

How the results depend on the processing

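Over all genes, 2285 rose and 2107 fell. The counts became 943 higher with the duct score as a term, 1 higher and 34 lower without WT2, WT3, WT4, WT5 and tg2 (WT1 alone for its group, assumed to vary like the others), 1 and 0 without WT1, tg1, tg3, tg4 and tg5 (tg2 alone likewise), 1133 and 1287 without tg3 and tg5, 3622 lower without WT1 and tg2, and 878 lower with the length and GC correction. Leaving out 1 library gave 1370 to 3050 higher and 1609 to 3629 lower. Of the 10 genes, 6 rose and 1 fell. With the replicate block 2 rose, with the duct score 1, with limma on FPKM 1 (6 of the 10 tested), and without tg3 and tg5 (3 higher and 1 lower at an unadjusted p under 0.05) or in either fit within a kind of library (low or high in duct markers) 0. None fell (0) without a filter, with the block, with the duct score, without WT1 and tg2, without tg3 and tg5, or within a kind of library. At a mean of at least 10 CPM, where 5 of the 10 and not Gadd45b were tested, 0 fell. Leaving out 1 library gave 1 to 7 higher and 0 to 1 lower. Of the related lists, 29 rose and 10 fell. With the duct score 13 rose, with limma 17, without tg3 and tg5 12, and within either kind of library 0, where also 0 fell. With the length and GC correction 2 fell. Leaving out 1 library gave 15 to 40 higher and 9 to 13 lower. Of the genes followed under every alternative (the 10 and those named by rule), those that turned sign were Egr2 at -0.064 without tg3 and tg5, Nr4a3 at -0.056 without tg5 and -0.51 without tg3 and tg5 (up to 0.65 without tg4), Nr4a3 and Ier2 at -0.37 and -0.16 within the duct-rich libraries, and Creb1 at 0.24 and Ncor1 at 0.044 with the length and GC correction. The cause was not tested. No label says that the replicate numbers pair the libraries. Same-numbered libraries correlated at -0.385 to 0.674 in their deviations from the group means, and 1 of 5 matched its own number best. These values cannot decide on pairing, since the labels disagree on the numbers of 3 aADM2-tg samples. Genes under the floor of 3 counts in a library could not be compared at this depth.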

Other observations

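Other genes with a high ratio of tg5 to the median of the other 9 libraries were of several kinds, and were chosen after their values were seen. Ccl7, a monocyte chemokine, was at 26.3 CPM in tg5 and 21.9 CPM in tg3, beside 2.07 to 3.54 CPM in WT. In tg1, tg2 and tg4 it was at 4.02 to 5.27 CPM, also above WT. Arc, an early gene of neurons and one of the related list, was at 42.3 CPM in tg5 and 19.3 CPM in tg3, beside 0.277 to 2.25 CPM in the other libraries.

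A second kind was far lower in tg3 than in tg5, although Cish in tg3 still lay above WT. Gpx5, a secreted enzyme of the epididymis, was at 147.6 CPM in tg5 and 136.5 CPM in WT3, with 0.437 CPM in tg3. Igkc, the immunoglobulin kappa constant gene, was at 369.8 CPM in tg5, 85.1 CPM in tg1 and 4.55 CPM in tg3. Cish, a target of cytokine signalling, was at 43.3 CPM in tg5, 50.2 CPM in tg1 and 37.2 CPM in tg2, with 8.98 CPM in tg3, 3.62 CPM in tg4 and 3.27 to 3.95 CPM in WT.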
